A study of Mus musculus with 8 samples.

Results

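The 4 Hox clusters were followed through 159 regions of open chromatin, out of 168842 regions measured in mouse embryoid bodies at day 4. A region was taken when its midpoint lay in, or within 100 kb of, the span of 1 of 38 listed Hox genes and no other protein-coding gene was nearer (mm10). Hoxa on chromosome 6 gave 36 regions, Hoxb on chromosome 11 gave 61, Hoxc on chromosome 15 gave 36 and Hoxd on chromosome 2 gave 26. All 38 genes had at least 1 region, and all 159 regions passed the filter on low values, a mean of at least 10 normalized reads over the 8 libraries.

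The study asked how chromatin differs between mesodermal cells with, without and with excess Etv2, the ETS transcription factor that starts the endothelial and blood programme. Omni-ATAC, an assay in which Tn5 transposase inserts adapters where DNA is accessible, was run on sorted live cells, with 2 libraries in each of 4 groups. WT DP and WT SP are the PDGFRalpha+FLK1+ and the PDGFRalpha-FLK1+ cells of the wildtype embryonic stem cell line A2lox.Cre. KO DP is the PDGFRalpha+FLK1+ population of the Etv2 knockout line, and OE SP is the PDGFRalpha-FLK1+ cells of the iETV2 line, given doxycycline at 2 µg/ml at day 2.5 to induce Etv2. All lines were grown on irradiated mouse embryonic fibroblast feeders and then without feeders on gelatin before differentiation. The untreated iETV2 line and wildtype cells with doxycycline were not analysed here, so line, doxycycline and Etv2 cannot be told apart in the OE comparison, nor line and genotype in the KO comparison. No label says that the 2 libraries of a group are separate cultures, and the p-values then reflect only how far these samples differ, which may be technical.

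Hox genes encode homeodomain transcription factors that give cells their position along the body axis. Within each cluster the genes lie in the order of their position numbers, and low-number (anterior) genes open and are transcribed before high-number (posterior) genes as mesoderm leaves the primitive streak. Retinoic acid, Wnt signalling through the CDX factors and release from Polycomb repression drive that opening, and PBX and MEIS proteins bind DNA together with the HOX proteins. Hoxb1 and Hoxd1 are among the earliest to be switched on, and retinoic acid response elements lie beside Hoxb1.

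The promoters of Hoxb1 and Hoxd1 are shown because both lay in regions that were less open in OE SP, and that of Hoxa2 because its window held matches to both a HOX-PBX and a MEIS motif. They were chosen after their values were seen. Each sequence is the 250 bases before the gene's start from RefSeq on GRCm38.p6, the assembly that mm10 names, 5′ to 3′ on the gene's strand, and capitals mark the bases inside the measured region. Hoxb1 is at chr11:96365508-96365757 on the plus strand, Hoxd1 at chr2:74762730-74762979 on the plus strand and Hoxa2 at chr6:52164832-52165081 on the minus strand.
Hoxb1: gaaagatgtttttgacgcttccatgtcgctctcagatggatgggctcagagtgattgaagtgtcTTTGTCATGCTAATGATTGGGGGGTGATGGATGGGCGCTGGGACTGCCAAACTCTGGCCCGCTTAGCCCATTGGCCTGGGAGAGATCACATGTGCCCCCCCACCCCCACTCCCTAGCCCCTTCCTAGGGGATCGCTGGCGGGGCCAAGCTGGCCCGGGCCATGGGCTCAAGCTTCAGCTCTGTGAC
Hoxd1: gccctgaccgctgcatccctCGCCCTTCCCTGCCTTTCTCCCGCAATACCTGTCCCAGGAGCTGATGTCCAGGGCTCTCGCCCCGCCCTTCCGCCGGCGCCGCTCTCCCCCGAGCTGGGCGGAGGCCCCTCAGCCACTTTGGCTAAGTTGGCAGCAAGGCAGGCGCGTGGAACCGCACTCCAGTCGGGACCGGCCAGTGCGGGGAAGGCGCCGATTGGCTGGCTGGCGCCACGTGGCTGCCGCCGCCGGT
Hoxa2: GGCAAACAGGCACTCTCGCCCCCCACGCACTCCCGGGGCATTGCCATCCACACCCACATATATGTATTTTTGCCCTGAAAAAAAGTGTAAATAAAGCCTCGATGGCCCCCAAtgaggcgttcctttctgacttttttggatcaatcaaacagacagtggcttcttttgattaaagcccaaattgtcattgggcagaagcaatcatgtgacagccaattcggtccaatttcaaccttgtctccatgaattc

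The Hoxd1 window was 71.6% G and C with 24 CpG dinucleotides, the Hoxb1 window 59.2% with 7, and the Hoxa2 window 46.4% with 6. RefSeq windows were matched for 22 of the 38 Hox genes, 24 windows in all, and their median was 58.6% G and C with 12.5 CpG, against 52.4% and 6.0 over 32851 promoters. Motifs were searched on both strands as exact letters, so sites with other letters were not counted and a window without a match may still hold one. The ETS core AGGAAG was found in 6 of the 24 Hox windows, Hoxb1 among them (reverse strand, bases 184 to 189), and in 29.5% of all promoters. The HOX-PBX letters TGATTGAT were found in Hoxa2 (reverse strand, bases 140 to 147, outside the measured region) and Hoxd11, and in 0.67% of all promoters. The MEIS letters TGACAG were found in Hoxa2 (forward strand, bases 207 to 212, also outside the measured region) and Hoxa3, and in 15.9% of all promoters. The CDX letters TTTATGG were found in Hoxd4 and TTTATTG in Hoxb8, against 2.43% and 4.2% of all promoters, and the GATA letters GATAAG in Hoxd8, against 6.55%. The longer ETS site CCGGAAGT (2.88% of all promoters), the HOX-PBX letters TGATTTAT (0.837%) and the direct-repeat retinoic acid element (0.00913%) were in none of the 24 windows. The Hoxd1 window held no match to any motif searched. None of these motifs overlap each other in the windows printed.

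Hox regions were more open than most. Their median level was 85.0 normalized reads, against 36.0 over all regions, and the median Hox region stood at percentile 75.7 of all. The lowest mean over the 8 libraries was 11.9 and the highest 807.6. Of the 159, 47 had their midpoint within 1 kb of an end of a Hox gene (29.6%, against 10.2% of all regions), 54 lay inside a gene and 58 outside. The regions were 401 bp wide except for 1 of 784 bp. The farthest region, at chr15:103085828-103086228, lay 49172 bp from Hoxc4 with a mean of 76.5 normalized reads, so no member stood near the 100 kb limit. The next region outward, at chr15:103101986-103102386, was nearer to Smug1 and had a mean of 125.2, with an OE minus WT SP difference of -0.23 on the log2 scale against -0.52 for the Hoxc4 region.

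In the 7 libraries whose whole reads could be recovered, reads in regions ran from 12477601 to 18853733, and a Hox region held a median of 82.0 reads per library. The OE SP libraries differed more from each other than the others did: the median SD between replicates over the Hox regions, on the log2 scale, was 0.24 in OE SP, against 0.09 in WT DP, 0.11 in WT SP and 0.12 in KO DP. OE replicate 2 stood above OE replicate 1 in 120 of the 159 Hox regions, with a median ratio of 1.22, and in 111432 of all 168842 regions, with 1.17. The region inside Etv2 at chr7:30634628-30635028 held 563.0 and 610.8 normalized reads in WT DP, 475.3 and 492.7 (WT SP) and 425.3 and 645.1 (OE SP), but 0.84 and 0 (KO DP), as the knockout label says. A region beside Pdgfra at chr5:75149925-75150325 held 579.5 and 657.5 (WT DP) and 686.0 and 638.2 (KO DP), and 271.8 and 269.6 (WT SP) and 108.0 and 128.8 (OE SP). That region was chosen after its values were seen. Of the 28 regions nearest Pdgfra, limma called 4 lower and 2 higher in WT SP than in WT DP, and the region at the gene's end, at chr5:75151130-75151530, was not called (log2 difference 0.02, limma adjusted p = 0.958).

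Differences were tested with limma on log2(normalized reads + 5), with all 8 libraries in a fit of 4 group means, and regions with an adjusted p (Benjamini-Hochberg over the 167573 regions tested) below 0.05 were called. Fold changes below are on that scale, which understates the change of regions with few reads, and the SE is that of the fit. The fit takes a common spread per region for the 4 groups. The larger replicate spread of OE SP, given above, therefore enters the SE of the comparisons without OE SP too. The WT SP libraries enter both the first and the last comparison and the WT DP libraries both of the first 2, so the comparisons are not independent of each other.

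The clusters as a whole took a smaller share of accessible reads in OE SP, mostly through Hoxb. Per 1000000 normalized reads, all Hox regions together held 930.6 and 955.5 (OE SP), 1160.7 and 1134.9 (WT SP), 1097.2 and 1125.1 (WT DP) and 1106.8 and 1151.7 (KO DP). Hoxb held 297.4 and 350.3 of them (OE SP), 456.5 and 455.6 (WT SP), 444.7 and 458.7 (WT DP) and 513.8 and 531.8 (KO DP). Both OE SP libraries lay below all 6 others, and both KO DP libraries above all 6 others. Tall regions weigh most in such sums. The tallest, at chr11:96397176-96397576, held 947.6 and 999.3 of the 8075.3 and 7845.4 normalized reads of Hoxb in WT SP. In OE SP it held 73.7 and 335.0 of 4082.9 and 6039.8. Between KO DP and WT DP the median log2 difference of Hoxb regions was -0.04, although the share was higher in KO DP. Hoxa moved otherwise. It held 180.8 and 186.9 (KO DP), 215.0 and 219.9 (WT DP), 234.8 and 224.0 (WT SP) and 220.8 and 221.7 (OE SP), so the KO DP libraries were the lowest. Hoxd held 222.7 and 222.3 (WT SP), against 194.0 and 203.9 (WT DP), 186.0 and 198.9 (KO DP) and 188.2 and 178.5 (OE SP). Hoxc held 224.1 and 205.0 (OE SP), 226.3 and 234.1 (KO DP), 243.4 and 242.6 (WT DP) and 246.7 and 233.0 (WT SP). There too both OE SP libraries were the lowest, though by little. With 2 libraries against 2, an exact permutation test of such a share cannot reach 0.05 and none was made.

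**Figure D1:**
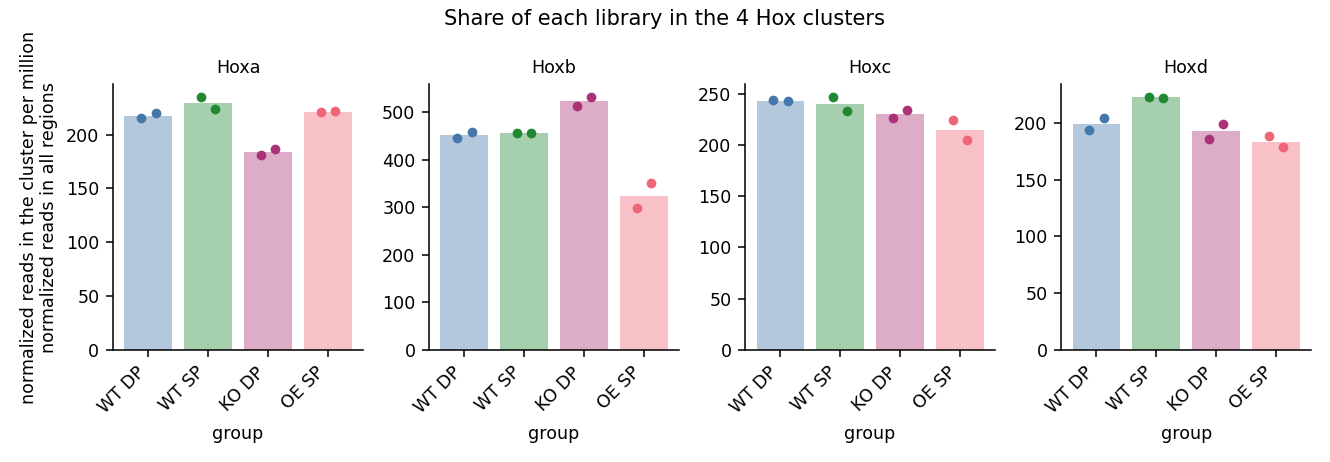
Normalized reads in each Hox cluster per 1000000 normalized reads in all regions (vertical axis) by group (horizontal axis). Points are the 2 libraries of a group and bars their mean. For Hoxb OE SP sits at 297.4 and 350.3, KO DP at 513.8 and 531.8, on either side of the 4 wildtype libraries.

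Between the wildtype populations, few Hox regions were called in the fit of all 4 groups, and 4 of the 7 called lay around Hoxb1. More were called in a fit of the compared groups alone, given below. WT SP was higher than WT DP in 2 Hox regions and lower in 5 of 159. That is 1.3% and 3.1%, against 6.2% called higher and 8.12% called lower over all regions. The median difference was 0.17 over Hox regions and 0.11 over all regions. At an unadjusted p below 0.05, 17 Hox regions were higher (10.7%) and 9 lower (5.7%), against 15.7% and 14.2% of all regions.

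A region 42423 bp beyond the 3′ end of Hoxb1, at chr11:96410477-96410877, was nearly closed in WT DP and KO DP and open in SP cells. It held 10.7 and 10.8 normalized reads in WT DP, 6.72 and 4.75 (KO DP), 82.4 and 75.3 (WT SP), and 253.9 and 469.0 (OE SP). The groups did not overlap in either SP comparison. WT SP exceeded WT DP by 2.41 (SE 0.28, limma adjusted p = 0.000407) and OE SP exceeded WT SP by 2.06 (SE 0.28, limma adjusted p = 9.92e-05).

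Closer to the gene the direction turned. The region at chr11:96370374-96370774, 2320 bp beyond Hoxb1, held 85.4 and 108.7 normalized reads in WT DP and 115.0 and 109.3 (KO DP), against 30.5 and 27.8 (WT SP) and 16.8 and 13.1 (OE SP). The DP libraries were all above the SP libraries, and WT SP was lower than WT DP by a log2 difference of -1.57 (SE 0.22, limma adjusted p = 0.00101). The Hoxb1 promoter region at chr11:96365572-96365972, which holds the capitals printed for Hoxb1, held 167.0 and 162.6 (WT DP), 127.6 and 123.6 (KO DP), 98.7 and 112.0 (WT SP) and 69.3 and 52.6 (OE SP). WT SP was below WT DP by -0.62 (SE 0.19, limma adjusted p = 0.0461), and the call was lost when any of the 4 libraries was left out, with a pseudocount of 1 and with the replicate number as a block (highest adjusted p 0.27). A further lower region, 6818 bp beyond the gene at chr11:96374872-96375272, held 55.3 and 62.9 (WT DP) against 29.5 and 23.8 (WT SP), a log2 difference of -1.02 (SE 0.29, limma adjusted p = 0.0338).

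Outside Hoxb1, single regions were called. A region 32028 bp from Hoxb13, its nearest gene, at chr11:96228438-96228838 held 27.2 and 31.4 (WT DP) and 7.12 and 8.92 (WT SP) (log2 difference -1.40, SE 0.26, limma adjusted p = 0.00521). A region 5554 bp from Hoxc4 at chr15:103042210-103042610 held 98.0 and 94.3 (WT DP) and 48.9 and 39.7 (WT SP) (-1.04, SE 0.32, limma adjusted p = 0.0464). Within Hoxd10, a gene of the limb and trunk series, the region at chr2:74687857-74688257 held 95.1 and 97.9 (WT DP) and 154.7 and 176.5 (WT SP) (0.75, SE 0.19, limma adjusted p = 0.0208). Of the 6 regions named by the rule for this comparison, the Hoxb1 regions at 42423 bp and 2320 bp kept their call under all alternatives. The Hoxb13 region lost it without WT SP replicate 1 or WT DP replicate 2 (highest adjusted p 0.0661). The Hoxb1 region at 6818 bp, the Hoxc4 region and the Hoxd10 region lost it when any of the 4 libraries was left out (highest adjusted p 0.208, 0.251 and 0.175).

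No Hoxa region was called in either direction between WT SP and WT DP by limma. At an unadjusted p below 0.05, 3 Hoxa regions were higher and 1 lower. The median difference was 0.23 in Hoxa, 0.16 in Hoxb, 0.07 in Hoxc and 0.28 in Hoxd. In a fit of the compared groups alone, 37 Hox regions were called higher and 11 lower, against 22.4% and 15.5% of all regions.

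Between KO DP and WT DP cells, almost no single Hox region was called in the fit of all groups, though more were in a fit of the compared groups alone, given below. In KO DP against WT DP, 0 Hox regions were called higher and 1 lower by limma, or 0.6%, against 1.72% higher and 2.21% lower over all regions. At an unadjusted p below 0.05 the counts were 3 higher (1.9%) and 28 lower (17.6%), against 7.4% and 11.9% of all regions. On recovered reads, edgeR and DESeq2 called 0 Hox regions in each direction. Their counts over all regions are not given here, so this is not read as particular to Hox regions. The median difference was -0.15 over Hox regions and -0.07 over all.

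The called region lies within Hoxd4 at chr2:74727928-74728328. It held 92.2 and 88.0 normalized reads in WT DP and 43.7 and 53.5 (KO DP), while WT SP held 85.5 and 73.4 and OE SP 78.8 and 81.5. Both KO DP libraries were below the other 6. The log2 difference was -0.83 (SE 0.20, limma adjusted p = 0.0361), and the call was lost when any of the 4 libraries was left out, with the replicate number as a block, with either count test and with scaling to the 10000 highest regions (highest adjusted p 0.467).

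By cluster the differences ran apart. The median KO minus WT DP difference was -0.32 in Hoxa, -0.15 in Hoxc, -0.20 in Hoxd, and -0.04 in Hoxb. In Hoxa, 30 of 36 regions were below 0 (25 to 31 over the alternatives that kept all 36). Over all regions 95795 of 167573 were below 0, and over gene-end regions 12390 of 17268. Around Hoxb1 the median of 17 regions was 0.35, with none called by limma and 1 higher at an unadjusted p below 0.05. Hoxd1, the paralogue of Hoxb1 in Hoxd, had its leading region (its region of highest mean) at 334.9 and 360.2 (WT DP) and 548.3 and 571.7 (KO DP), a log2 difference of 0.68 (SE 0.31, limma adjusted p = 0.256). The groups did not overlap, but the difference was not called in the fit of all libraries. That SE also holds the spread of OE SP, whose libraries stood at 60.5 and 162.9 in this region. The sign was kept in all 15 alternatives and the region was called higher in 1 of them. In a fit of the compared groups alone, 14 Hox regions were called higher and 31 lower, against 8.89% and 13.1% of all regions. The 14 and 31 were 11 and 4 in Hoxb, 0 and 12 in Hoxa, 1 and 7 in Hoxc and 2 and 8 in Hoxd.

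OE SP cells had less open chromatin than WT SP cells at the anterior end of Hoxb. In OE SP against WT SP, 49 Hox regions were called lower and 6 higher of 159. The 30.8% called lower is near the 31.9% of all regions, while the 3.8% called higher compares with 16.6% of all regions. The median difference was -0.31 over Hox regions and -0.22 over all. Scaling by the median of ratios, which sets the median of all regions to 0 and the Hox median to -0.09, gave 9 higher and 32 lower. The shares of all regions called under that scaling are not given here, so the change in counts is not read as particular to Hox regions. In a fit of the compared groups alone, 1 was called higher and 34 lower, against 13.9% and 25% of all regions. Without WT SP replicate 1 the median was -0.31 over Hox regions and -0.22 over all, and without OE SP replicate 2 -0.45 and -0.29. Called regions lay at 23 of the 38 genes: 17 genes had lower regions only, 2 (Hoxc10 and Hoxc11) higher regions only, and 4 both.

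**Figure D2:**
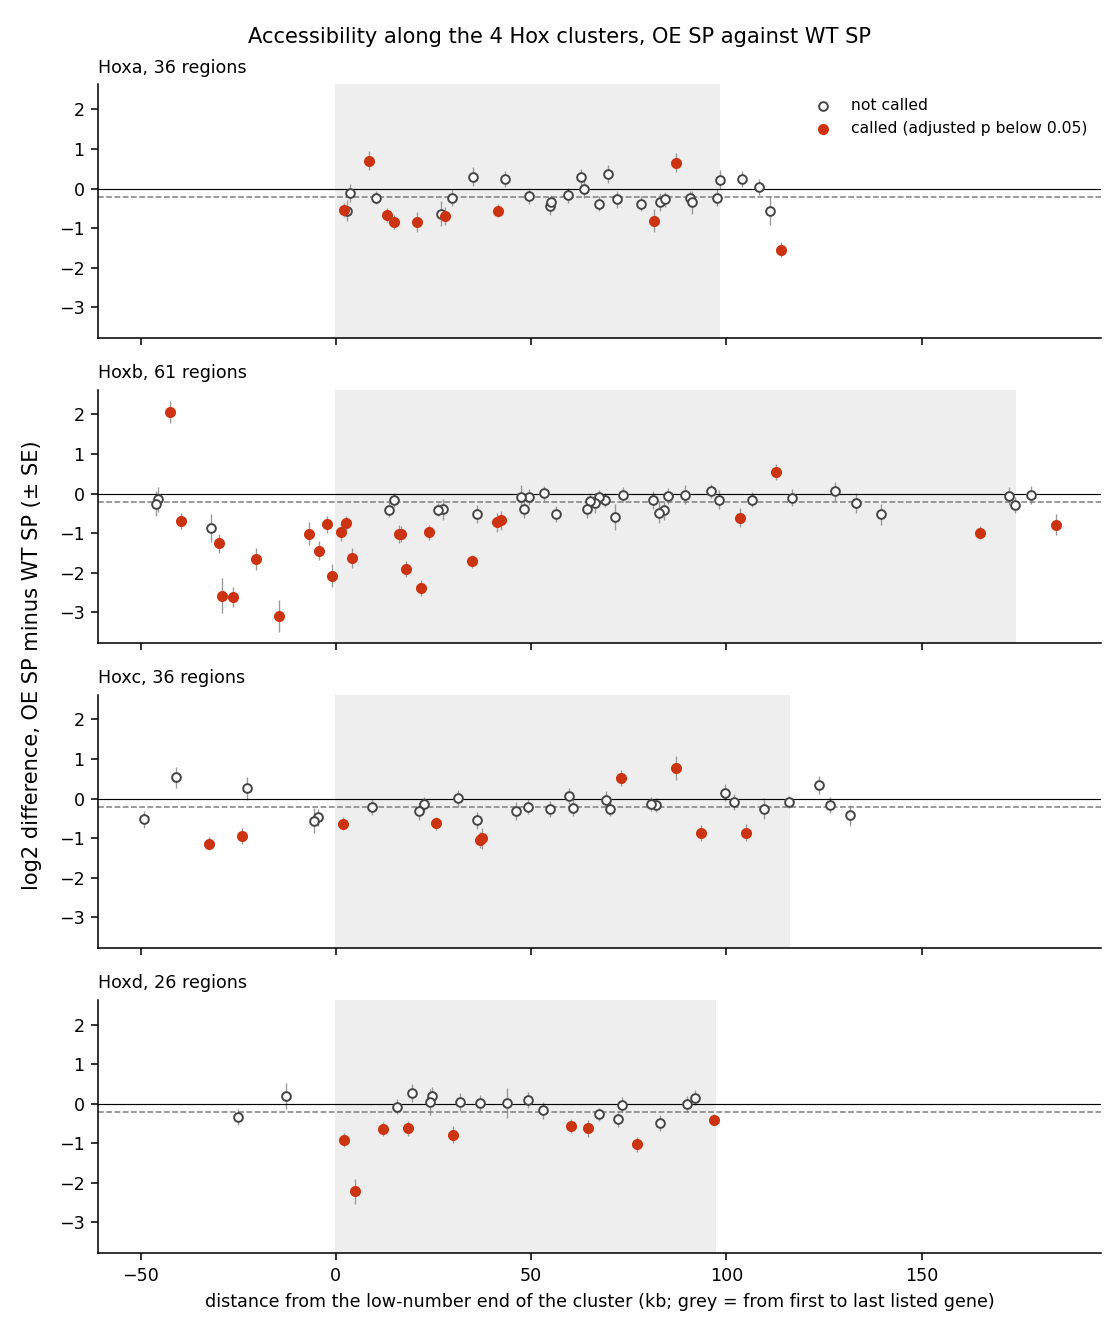
Log2 difference of each Hox region, OE SP minus WT SP, with its SE (vertical axis), against the distance from the low-number end of its cluster in kb (horizontal axis). The grey band runs from the first to the last listed gene, filled points are called, and the dashed line is the median of all regions, -0.22. The deepest points lie at and beyond the Hoxb1 end of Hoxb, where 1 region rises by 2.06.

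By cluster, 24 of 61 Hoxb regions were called lower and 2 higher (median -0.42), 8 of 36 Hoxa lower and 2 higher (-0.27), 8 of 36 Hoxc lower and 2 higher (-0.24), and 9 of 26 Hoxd lower and 0 higher (-0.22). At an unadjusted p below 0.05, too, 0 Hoxd regions were higher. By position number, at positions 1 to 3, 30 of 59 regions were called lower (50.8%, median -0.64), at positions 4 to 8, 9 of 40 (22.5%, -0.34), and at positions 9 to 13, 10 of 60 (16.7%, -0.20). Higher calls numbered 2, 0 and 4. Most of the first class came from Hoxb, in which 21 of 32 regions at positions 1 to 3 were lower (median -0.92), against 4 of 12 in Hoxa (-0.39) and 5 of 15 in Hoxd (-0.07). In Hoxb4 to Hoxb8, 0 of 15 regions were called by limma in either direction, and 0 at an unadjusted p below 0.05 (median -0.17). The difference between position classes was not tested. The 21 Hoxb calls ranged from 16 to 26 over the alternatives and the 30 from 19 (without WT SP replicate 1) to 37, and the 9 and 10 from 3 to 21 and from 4 to 20, the highest of each without OE SP replicate 2.

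**Figure D3:**
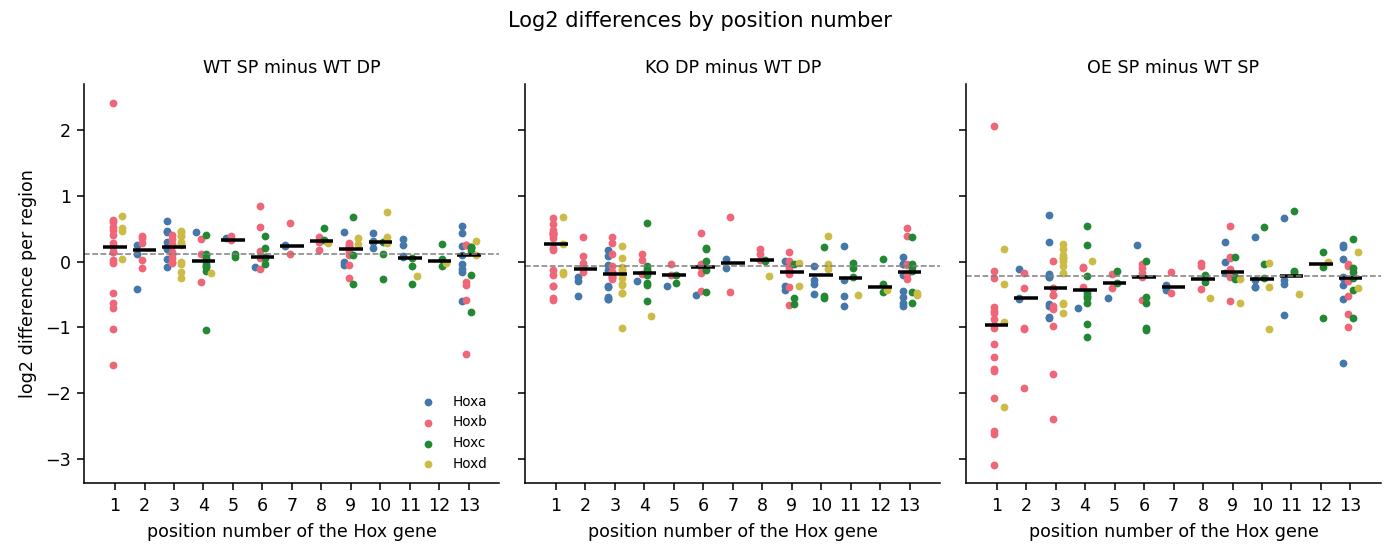
Log2 difference of each of the 159 Hox regions (vertical axis) by position number of its gene (horizontal axis) in the 3 comparisons, coloured by cluster. Black bars are medians per position and the dashed line is the median of all regions. In the OE SP panel the median is -0.97 at position 1, -0.56 at position 2 and -0.40 at position 3, and -0.25 at position 13.

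Around Hoxb1, which patterns the hindbrain and early mesoderm, 13 of 17 regions were called lower and 1 higher. The most accessible region of all Hox genes, at chr11:96397176-96397576 and 29122 bp beyond the gene, held 871.7 and 896.4 normalized reads in WT DP, 947.6 and 999.3 (WT SP), 1156.2 and 1181.3 (KO DP), and 73.7 and 335.0 (OE SP). Both OE SP libraries were far below the rest, though they also differed from each other by more than any other group did. The log2 difference was -2.58 (SE 0.45, limma adjusted p = 0.000581). The region 26264 bp beyond the gene, at chr11:96394318-96394718, held 122.1 and 107.1 (WT SP) and 9.48 and 21.0 (OE SP), with 171.8 and 207.5 (WT DP) and 242.7 and 242.4 (KO DP) (-2.62, SE 0.25, limma adjusted p = 1.38e-05). The largest fall among Hox regions was 14590 bp beyond, at chr11:96382644-96383044, from 125.2 and 110.0 (WT SP) to 2.92 and 21.0 (OE SP) (-3.09, SE 0.40, limma adjusted p = 7.93e-05).

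Next to the gene, the region at chr11:96368936-96369336 fell from 247.3 and 240.9 (WT SP) to 34.3 and 84.1 (OE SP) (-2.07, SE 0.29, limma adjusted p = 0.000125). The region 1731 bp before the gene, at chr11:96363815-96364215, fell from 234.1 and 264.7 to 54.7 and 107.7 (-1.63, SE 0.25, limma adjusted p = 0.000257). The promoter region printed above fell less, by 0.75 on the log2 scale (SE 0.19, limma adjusted p = 0.0059; not called without WT SP replicate 2, 0.0632). The single Hoxb1 region that rose, 42423 bp beyond the gene, stood between a region that fell, at chr11:96407717-96408117 (-0.69, SE 0.20, limma adjusted p = 0.0138; lost under 4 of 13 alternatives), and 2 regions outward that were not called (-0.15 and -0.25). Beyond them the region nearest Skap1 at chr11:96421464-96421864 had a difference of -1.46.

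**Figure D4:**
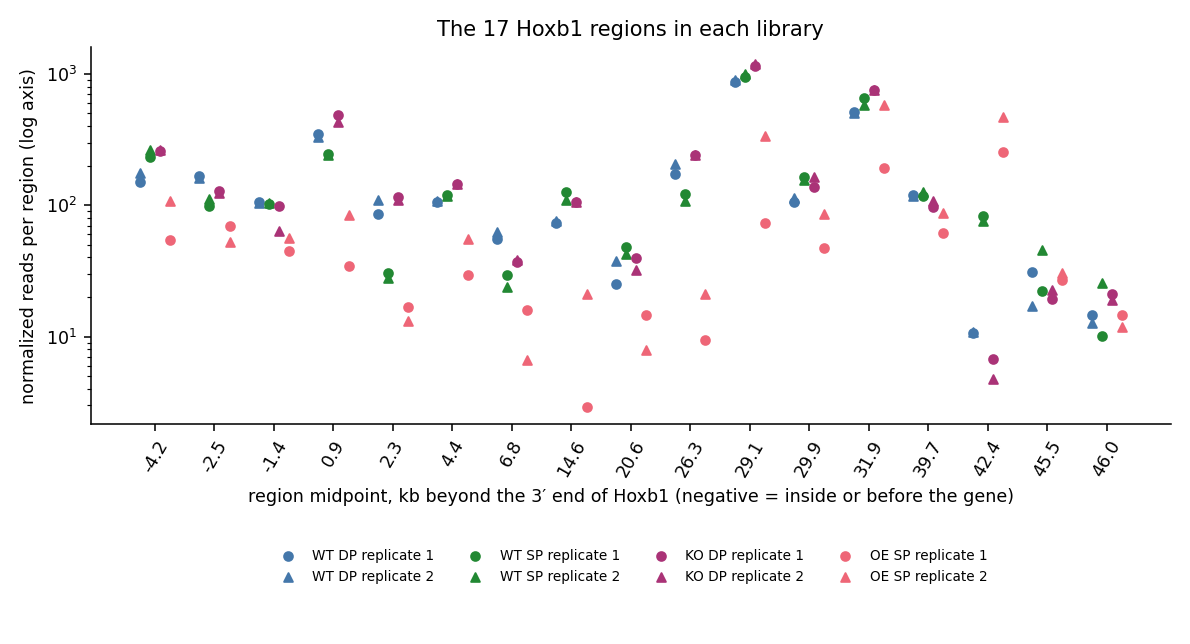
Normalized reads per region on a log axis (vertical) in each of the 8 libraries for the 17 Hoxb1 regions, ordered by the distance of their midpoint beyond the 3′ end of the gene in kb (horizontal; negative values lie inside or before the gene). In the tallest region the OE SP libraries sit at 73.7 and 335.0 and every other library is higher; in the region 42423 bp beyond the gene they sit at 253.9 and 469.0 and every other library is lower.

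Hoxb2 and Hoxb3, which act with Hoxb1 in the hindbrain and branchial arches, were lower too. At Hoxb3, 5 of 10 regions were called lower. The region within Hoxb3 at chr11:96346353-96346753 had the lowest adjusted p of all Hox regions: it held 222.3 and 221.0 normalized reads in WT DP, 304.3 and 286.5 (WT SP), 262.8 and 314.9 (KO DP), and 42.3 and 64.4 (OE SP) (-2.39, SE 0.20, limma adjusted p = 7.12e-06). A second, at chr11:96333330-96333730, fell from 154.7 and 149.7 (WT SP) to 43.8 and 42.0 (OE SP) (-1.71, SE 0.17, limma adjusted p = 1.71e-05). At Hoxb2, 3 of 5 regions were lower, with chr11:96349990-96350390 at 117.0 and 111.0 (WT SP) and 25.5 and 27.6 (OE SP) (-1.92, SE 0.20, limma adjusted p = 2.14e-05). The Hoxb2 gene-end region of highest mean, at chr11:96353120-96353520, held 194.4 and 200.2 against 156.1 and 195.8 and was not called (-0.17, limma adjusted p = 0.456).

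At Hoxd1, 2 of 4 regions were called lower. Its leading region, 2714 bp before the gene at chr2:74760066-74760466, held 472.3 and 490.7 (WT SP) and 60.5 and 162.9 (OE SP) (-2.21, SE 0.31, limma adjusted p = 0.000143). Its promoter region at chr2:74762750-74763150, printed above, held 272.8 and 299.1 (WT DP), 412.2 and 405.5 (WT SP), 260.3 and 238.9 (KO DP), and 186.7 and 244.4 (OE SP). OE SP was lower than WT SP by -0.92 (SE 0.17, limma adjusted p = 0.000846). At Hoxd3, the next gene, 3 of 11 regions were lower with a median of 0.01 over all 11.

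In Hoxa, whose anterior genes pattern the branchial arches and whose posterior genes pattern limb and urogenital tract, Hoxa3 had 3 lower and 1 higher of 9 regions. The Hoxa3 region at chr6:52177211-52177611 fell from 141.5 and 156.6 to 84.6 and 76.2 (-0.85, SE 0.17, limma adjusted p = 0.00162), and the Hoxa3 region at chr6:52175349-52175749 from 186.3 and 154.6 to 102.9 and 105.1 (-0.68, SE 0.18, limma adjusted p = 0.00707; not called without WT SP replicate 1). Another Hoxa3 region at chr6:52170627-52171027 rose from 173.0 and 120.9 to 192.6 and 296.9 (0.71, SE 0.24, limma adjusted p = 0.0267). The Hoxa region with the lowest adjusted p lay 15593 bp from Hoxa13, at chr6:52276273-52276673: it held 136.9 and 139.2 (WT DP), 87.5 and 92.2 (WT SP), 79.8 and 89.1 (KO DP), and 26.3 and 28.9 (OE SP) (-1.54, SE 0.19, limma adjusted p = 5.18e-05). The Hoxa2 promoter region printed above held 49.9 and 42.6 (WT SP) and 40.9 and 21.0 (OE SP) and was not called (-0.57, SE 0.26, limma adjusted p = 0.0968).

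In Hoxc, which begins at position 4, 6 of the 8 lower calls lay at Hoxc4 and Hoxc6, genes of the cervical and thoracic series, with 3 of 9 and 3 of 5 regions lower. The other 2 were a region each at Hoxc12 and Hoxc13, both at -0.86 (limma adjusted p = 0.00424 and 0.00483; the Hoxc13 call was lost without WT SP replicate 1). The Hoxc4 region 32466 bp away at chr15:103069122-103069522 fell from 300.3 and 271.6 (WT SP) to 112.3 and 143.2 (OE SP) (-1.14, SE 0.17, limma adjusted p = 0.000218). The Hoxc6 region at chr15:102999856-103000256 fell from 50.9 and 58.5 to 24.1 and 23.6 (-1.05, SE 0.21, limma adjusted p = 0.00166), and the Hoxc4 region at chr15:103060708-103061108 from 104.8 and 96.2 to 59.1 and 42.0 (-0.94, SE 0.21, limma adjusted p = 0.00261). The Hoxd10 region that was higher in WT SP than in WT DP was lower in OE SP, at 70.8 and 86.7 (-1.03, SE 0.19, limma adjusted p = 0.000779).

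The 5 rises other than that of Hoxb1 were small, between 0.53 and 0.77, and lay at Hoxa3, Hoxa11, Hoxb9, Hoxc10 and Hoxc11. The region beside Hoxa11 at chr6:52249228-52249628 held 73.3 and 57.5 (WT SP) and 92.6 and 119.6 (OE SP) (0.66, SE 0.23, limma adjusted p = 0.0352). The Hoxc11 region at chr15:102949590-102949990 held 14.2 and 15.9 against 27.0 and 31.5 (0.77, SE 0.30, limma adjusted p = 0.0488). The region 15743 bp from Hoxb9 was higher by 0.55 (SE 0.21, limma adjusted p = 0.0452), and that 2928 bp from Hoxc10 by 0.53 (SE 0.20, limma adjusted p = 0.0484). Each of the 5 lost its call in a fit of the compared groups alone and without WT SP replicate 2. Of the 18 regions named for this comparison, 12 kept their call under all alternatives, and of all 55 called regions 26 did.

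Called regions lay at gene ends and between them. Of 47 Hox gene-end regions 12 were called lower (25.5%) and 0 higher, also at an unadjusted p below 0.05, of 54 inside genes 16 lower (29.6%) and 1 higher (1.9%), and of 58 outside genes 21 lower (36.2%) and 5 higher (8.6%). Over all regions, limma called 20.6% of gene-end regions lower and 6.8% higher, 32.7% and 17.2% of those inside genes, and 32.5% and 17.6% of those outside, so the lower shares of Hox regions were near those of all regions of the same class. The difference between these counts was not tested. Over the leading regions of the 38 genes, 19 of which were gene-end regions, OE SP was below WT SP in 35 of 38 and called lower in 12, with a median of -0.31. Below WT SP were 22 with median-of-ratios scaling or quantile normalization, 25 with scaling to the 10000 highest regions and 27 without OE SP replicate 1. Over all regions, 103439 of 167573 were below 0 in this comparison and 31.9% were called lower. Of all gene-end regions, 12099 of 17268 were below 0. Between WT SP and WT DP the leading regions were above 0 in 29 of 38 (21 with scaling to the 10000 highest regions), with a median of 0.25. That compares with 97838 of 167573 over all regions and 14052 of 17268 over gene-end regions. Of the leading regions, limma called 0 in either direction (4 higher and 0 lower at an unadjusted p below 0.05).

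**Figure D5:**
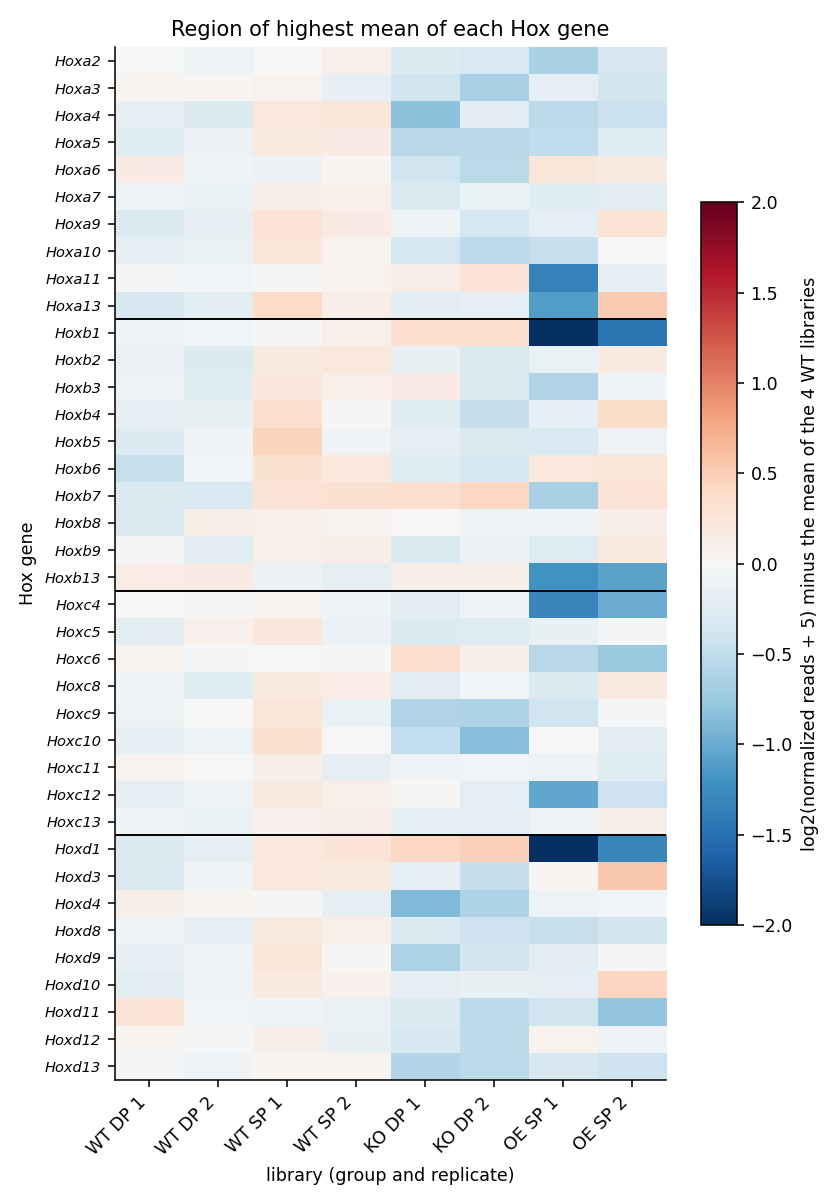
Region of highest mean of each of the 38 Hox genes (rows, by cluster) in each library (columns), as log2(normalized reads + 5) minus the mean of the 4 wildtype libraries. The colour scale ends at -2 and 2 and values beyond are drawn at its ends. The OE SP columns are deepest at Hoxb1 and Hoxd1, whose OE SP minus WT SP differences were -2.58 and -2.21.

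The leading regions of other genes most like that of Hoxd1 across the 8 libraries were those of Frmpd2 (Pearson r = 0.9974 of the log2 values), Syndig1l (0.9973), 1700016D06Rik (0.9943), Tcl1b2 (0.9942) and Gm51600 (0.9937), out of 18491 genes. All 5 were low in both OE SP libraries and lower in replicate 1, as the Frmpd2 region shows with 412.2 and 437.2 (WT SP) and 45.2 and 116.9 (OE SP). With 8 libraries that share their scaling, 529 genes had an r above 0.95, so the likeness was not rare.

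Outside the clusters, regions within 500 kb of the outermost Hox genes and nearest to another gene numbered 436. Of these, 127 were called lower (29.1%) and 61 higher in OE SP, with a median of -0.22, the median of all regions. Beside Hoxb the flanking regions were 29 lower and 18 higher of 131 (median -0.11). The 17 Hoxb member regions that lie beyond the span of the genes were 11 lower and 1 higher (median -0.87), and the 44 within it 13 lower and 1 higher (-0.40).

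Genes that act with or upstream of Hox genes, a list of 24 with 390 tested regions, had 50 regions called higher (12.8%) and 148 lower (37.9%) in OE SP (median -0.38), against 16.6% and 31.9% of all regions. The counts were 24 and 27 in WT SP against WT DP (6.2% and 6.9%, against 6.2% and 8.12% of all regions), and 13 and 8 in KO DP (3.3% and 2.1%, against 1.72% and 2.21%). Counts for single genes below are read against the same shares. Among the partners of HOX proteins, Pbx3 had 18 lower and 6 higher of 30, Meis1 11 lower and 8 higher of 37, and Meis2 15 lower and 4 higher of 35. Among the upstream regulators, Aldh1a2, which makes retinoic acid, had 10 lower and 0 higher of 26, and Cyp26a1, which degrades it, 5 lower and 2 higher of 12. Cdx1 had 2 higher and 0 lower of 4 and Cdx2 3 lower and 0 higher of 7. In KO DP, Rarb, a retinoic acid receptor, had 7 regions higher and 1 lower of 36 (median 0.53), and so held 7 of the 13 higher calls of the list. The single genes given here were not picked by the naming rule, and the other genes of the list are not given for KO DP.

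Markers of the cell types that the sorted cells could hold were followed in OE SP against WT SP. The counts are read against all regions, of which 16.6% were called higher and 31.9% lower. In OE SP, regions of 8 endothelial genes were 56 higher and 33 lower of 162, with a summed level of 13860.0 and 19744.5 normalized reads against 9492.0 and 9495.0 (WT SP). Regions of 8 paraxial and streak mesoderm genes were 4 higher and 36 lower of 71, with sums of 4484.8 and 5452.5 (OE SP), 7550.1 and 7590.6 (WT SP), 9761.7 and 9485.0 (WT DP), and 8446.7 and 8012.7 (KO DP). Regions of 8 cardiac genes were 16 higher and 75 lower of 150 (10804.2 and 14817.6, against 19160.2 and 18422.9 for WT SP), and of 7 blood genes 27 higher and 42 lower of 107 (9855.2 and 14854.4 against 12476.2 and 12191.4). Regions of 7 neuroectoderm genes were 14 higher and 31 lower of 93, near the shares of all regions (8365.6 and 9108.9 against 10279.8 and 9729.9). Of 7 fibroblast and feeder genes, 6 had regions, which were 4 higher and 37 lower of 77 (3203.8 and 4748.3 against 6675.8 and 6697.4). No list was at 0 in any library. In a sorted population, a changed share of cells and a change within cells cannot be told apart, and the part of these cell types in the Hox differences was not tested.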

How the data were processed

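Chromatin accessibility was measured by ATAC-seq in 8 libraries, 2 per group. The authors deposited 1 table of signal, normalized reads per region and library. Bowtie2, MACS2 and DiffBind 3.14.1 with mm10 are named per the submitters' processing notes, with no role. Their scaling method, Tn5 shift, duplicate removal and pooling of replicates for peak calling were not stated in them. Such scaling can move the balance of higher and lower calls, so other scalings were tried.

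Each region was assigned to its nearest protein-coding gene span in RefSeq (GRCm38.p6), with ties going to the shortest span. The Hox genes, gene lists and tests were chosen with earlier results of these data known. limma 3.58.1 (R 4.3.3, empirical Bayes with trend, two-sided) was fitted to log2(value + 5) over 167573 regions, those whose mean reached 10. It was also run on simulated data for WT SP against WT DP only. Every simulated library had the same dispersion, so the larger replicate spread of OE SP was not covered. Named regions are, per comparison, cluster and direction, up to 3 called regions of lowest adjusted p whose groups did not overlap, and the leading region of each gene. Others named were chosen after their values were seen. The planned promoter or region sequences were limited to promoter windows, since no genome was used here. A withheld item is not reported here.

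In 7 libraries, 100% of values were whole multiples of a library step within 0.01 reads, so whole reads were recovered. For WT SP replicate 2 the step is too close to 1 to be judged, so none were taken from it. The count tests (edgeR 4.0.16, DESeq2 1.42.0) therefore used 7 libraries and only the KO DP comparison, where they called 0 and 0 Hox regions. Depth and its precision are those of the report. Replicates did not agree within sampling noise in OE SP (chi-square per degree of freedom 4.38) and were close to it in WT DP (1.15) and KO DP (1.22). Each library was counted as 1 replicate.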

Additional observations from a re-analysis of the deposited data

How the results depend on the processing

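None of the called Hox regions (7, 1 and 55 in the 3 comparisons) changed direction under the alternatives run. Of the 38 leading regions, 14 changed sign under at least 1 alternative in the wildtype comparison, 15 in that of KO DP and 16 in that of OE SP, none of them called. Counts of Hox regions, given as higher then lower, moved as follows. In WT SP against WT DP (2 and 5), the lower count was 2 with a pseudocount of 1, 8 with 20, and 8 with median-of-ratios scaling. Quantile normalization gave 4 and 8, scaling to the 10000 highest regions 1 and 11, and the compared groups alone 37 and 11. Within 10 kb 1 was higher, and gene ends alone gave 0 and 1. Leaving out a library gave 1 higher and 1 to 2 lower. In KO DP against WT DP (0 and 1), the lower count was 2 with a pseudocount of 20. Quantile normalization gave 1 higher, scaling to the 10000 highest regions 1 and 0, and the compared groups alone 14 and 31. The lower count was 0 with edgeR, DESeq2, gene ends alone or any library left out. In OE SP against WT SP (6 and 49), median-of-ratios scaling gave 32 lower, the compared groups alone 1 higher, and gene ends alone 0 and 12. Leaving out a library gave 1 (without WT SP replicate 2) to 11 (without OE SP replicate 1) higher, with 3 without OE SP replicate 2 and 2 without WT SP replicate 1, and 27 (without WT SP replicate 1) to 78 (without OE SP replicate 2) lower. Where a group was left with 1 library, that library was assumed to vary like the others. Gene ends and 10 kb keep fewer regions, and for the other settings the cause was not tested. For pseudocounts, rescaling, the count tests and left-out libraries no counts over all regions are printed, so these counts do not show a shift particular to Hox regions.

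Replicate numbers in the sample titles are shared across groups, but the KO DP library names carry other numbers than those of the other groups. Nothing in the labels ties equal numbers, and the correlations of replicate differences between groups ran from -0.004 to 0.056. With the replicate block the counts were 2 and 4, 0 and 0, and 4 and 48. The edgeR and DESeq2 alternatives for the comparisons with WT SP were not run, because whole reads were not taken from WT SP replicate 2. The position-class counts, and the leading and called regions outside the naming rule, under the alternatives were added after seeing the data. With 82.0 reads in the median Hox region and 2 libraries per group, differences smaller than the replicate spread were not detectable.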
